A study of Rattus norvegicus with 12 samples.

Results

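The comparison described here is the addition of lipopolysaccharide (LPS) to hypobaric hypoxia. It was taken from the sample labels alone, as the 3 arrays of the COMB group set against the 3 arrays of the HPO group, 6 of the 12 arrays of the series. Both groups were kept in a hypobaric chamber, and COMB received LPS as well, so the difference between them addresses what LPS changed in cells of the lung lavage when the animals were hypoxic. The 3 LPS and 3 CTL arrays, the pair with and without LPS under normoxia, are used where the LPS response in hypoxia is set against that in normal air.

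All animals were Sprague-Dawley rats of 8 weeks, male by the study's methods, and RNA came from the cells of bronchoalveolar lavage fluid (BALF), the saline washed in and out of the right lung. HPO rats spent 6 h at a simulated altitude of 5000 m, at 405.35 mmHg and 11.2% oxygen. COMB rats had the same exposure after LPS at 0.5 mg/kg into the tail vein, LPS rats had the same dose in normal air, and CTL rats had saline in normal air. The labels give a saline injection for CTL and none for HPO, so LPS and the injection itself cannot be told apart in COMB against HPO. Where the LPS response in hypoxia is set against that in normal air, hypoxia and the injection cannot be told apart either. Each array held a pool of total RNA. The titles list 3 rats in every HPO pool but 2, 2 and 3 rats in the COMB pools, while the methods speak of 3 animals a pool. Pools 1, 2 and 3 of HPO came from rats 7, 8 and 9, from rats 2, 4 and 11 and from rats 3, 5 and 12, and those of COMB from rats 2 and 3, from rats 10 and 11 and from rats 12, 13 and 14. Values are always given in the order of the pools. Since nothing states how many separate exposures the animals of a group had, the p values measure only the spread between pools. That spread was estimated within groups over all 12 arrays. The LPS and CTL pools therefore also enter every standard error and p value of COMB against HPO.

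LPS is a component of the outer membrane of gram-negative bacteria. LPS binding protein passes it to CD14 and then to the receptor pair of TLR4 and MD-2, which signals through MyD88 to NF-kB and through TRIF to interferon genes. Where LPS is in the alveolar space, the first cells to meet it are alveolar macrophages, which release chemokines that bring in neutrophils and monocytes. The epithelium answers with mucins, antimicrobial proteins and chemokines of its own. Here LPS was given into a vein, and which cells met it first was not examined. The same pathways switch on their own inhibitors, among them IkB alpha, A20 and regnase-1.

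Intensities are linear values of a probe set as deposited, while differences are on a log2 scale after adding 1, so the change of a dim gene is understated. A gene is read from 1 probe set. "Called" means an adjusted p below 0.05 from limma with Benjamini-Hochberg adjustment over all 25692 probe sets tested, and every ± is a standard error. Array medians lay between 32.72 and 35.61. Pools correlated across probe sets at 0.976 to 0.989 within COMB, 0.986 to 0.994 within HPO and 0.960 to 0.968 between them. Macrophage genes were bright in both groups, with the mannose receptor Mrc1 at 6480.3, 6962 and 6777 in HPO and 6946, 5404 and 6703 in COMB. Marco, Siglec1 and Ear1 had no probe set naming them alone and were not read. Club cell secretoglobin Scgb1a1, at 8093, 9407 and 7078 in HPO and 10726, 9676 and 9489 in COMB, showed airway epithelial RNA in every pool. COMB pool 1 stood apart from the other COMB pools in lymphocyte, interferon and epithelial genes, and CTL pool 2 (rats 5, 6 and 7) stood apart from the other CTL pools in inflammatory and interferon genes. The lists of such genes are given with and without COMB pool 1, and interferon genes, Cxcl2 and Il1b in normal air with and without CTL pool 2. In bulk RNA, fewer cells of a type and less RNA per cell cannot be told apart.

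Of 12853 genes tested, 1180 were called higher (9.18%) and 1203 lower (9.36%) in COMB. Numbers were near equal but sizes were not. Among the higher genes 389 differed 2- to 4-fold, 89 differed 4- to 8-fold and 32 at least 8-fold. Among the lower genes 121 differed 2- to 4-fold, 4 differed 4- to 8-fold and 0 more than that. The values of the 3 COMB pools lay all above or all below those of the 3 HPO pools in 3983 genes (31%). Of the 2383 called genes, 1296 were also called without each of the 6 pools in turn, 666 of them higher and 630 lower.

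The 12 genes with the largest rise were led by antimicrobial proteins, chemokines and members of the interleukin-1 family. Lcn2 encodes lipocalin 2, which binds bacterial iron carriers. Its intensity was 20.5, 40.5 and 46.01 in HPO and 4960.5, 4547 and 3717 in COMB, a log2 difference of 6.98 ± 0.27, adjusted p = 5.2e-08. Cxcl1, a chemokine that attracts neutrophils, was at 22.6, 15.5 and 14.01 in HPO and 1065, 1479.6 and 1598 in COMB (log2 difference 6.24 ± 0.56, adjusted p = 6.7e-05). S100a9, a subunit of the calcium-binding protein calprotectin of neutrophils, was at 96.96, 31.5 and 75.9 in HPO and 3326, 4403 and 1819.8 in COMB (log2 difference 5.58 ± 1.22, adjusted p = 0.0095). The groups did not overlap for any of these, and the lowest COMB value of Lcn2 lay far above the highest HPO value. Saa3, an acute phase serum amyloid protein made locally, was at 87.1, 86.3 and 108 in HPO and 3024, 3798 and 3444 in COMB (log2 difference 5.18 ± 0.16, adjusted p = 7.8e-09). Its COMB pools lay close together.

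Chemokines held 5 of these 12 places. Ccl2, which attracts monocytes, was at 22.1, 29.1 and 16.9 in HPO and 311, 1493 and 1163 in COMB (log2 difference 5.14 ± 0.76, adjusted p = 0.0011). Ccl20, which attracts CCR6-bearing lymphocytes and dendritic cells, was at 45.7, 33.8 and 46.6 in HPO and 1589.9, 1470.1 and 1357 in COMB (log2 difference 5.11 ± 0.13, adjusted p = 1.9e-09). The spread differed between the pair, as Ccl20 varied little among the COMB pools while Ccl2 was several-fold lower in COMB pool 1 than in the other COMB pools. Cxcl2 was at 52.3, 53.9 and 113 in HPO and 1229, 3725 and 2846 in COMB and Cxcl3 at 46.8, 35.4 and 40.2 in HPO and 470.4, 2883 and 1405 in COMB, both chemokines for neutrophils. Their log2 differences were 5.08 ± 0.99, adjusted p = 0.0050 for Cxcl2 and 4.90 ± 0.61, adjusted p = 0.00042 for Cxcl3. Again COMB pool 1 was the lowest of COMB and still above every HPO pool.

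The remaining 4 were cytokine and lectin genes. Il1b, encoding interleukin-1 beta, was at 129, 77.9 and 85.03 in HPO and 2206, 3903 and 3301 in COMB (log2 difference 4.99 ± 0.68, adjusted p = 0.00068). Il1a, encoding interleukin-1 alpha, was at 49.8, 51.8 and 46.2 in HPO and 961, 1608 and 1312 in COMB (log2 difference 4.66 ± 0.29, adjusted p = 8.1e-06). Ebi3, a subunit that interleukin-27 and interleukin-35 share, was at 27.2, 38.6 and 24.5 in HPO and 151, 1493 and 946 in COMB (log2 difference 4.29 ± 0.82, adjusted p = 0.0046). Ebi3 was the most uneven of these 3, with COMB pool 1 between HPO and the other COMB pools. Clec10a, a galactose-type lectin receptor of macrophages and dendritic cells, was at 35.2, 63.1 and 55.9 in HPO and 982, 549 and 2792 in COMB (log2 difference 4.49 ± 0.46, adjusted p = 0.00016). For Clec10a the order of the pools was another one, with COMB pool 3 the highest.

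**Figure D1:**
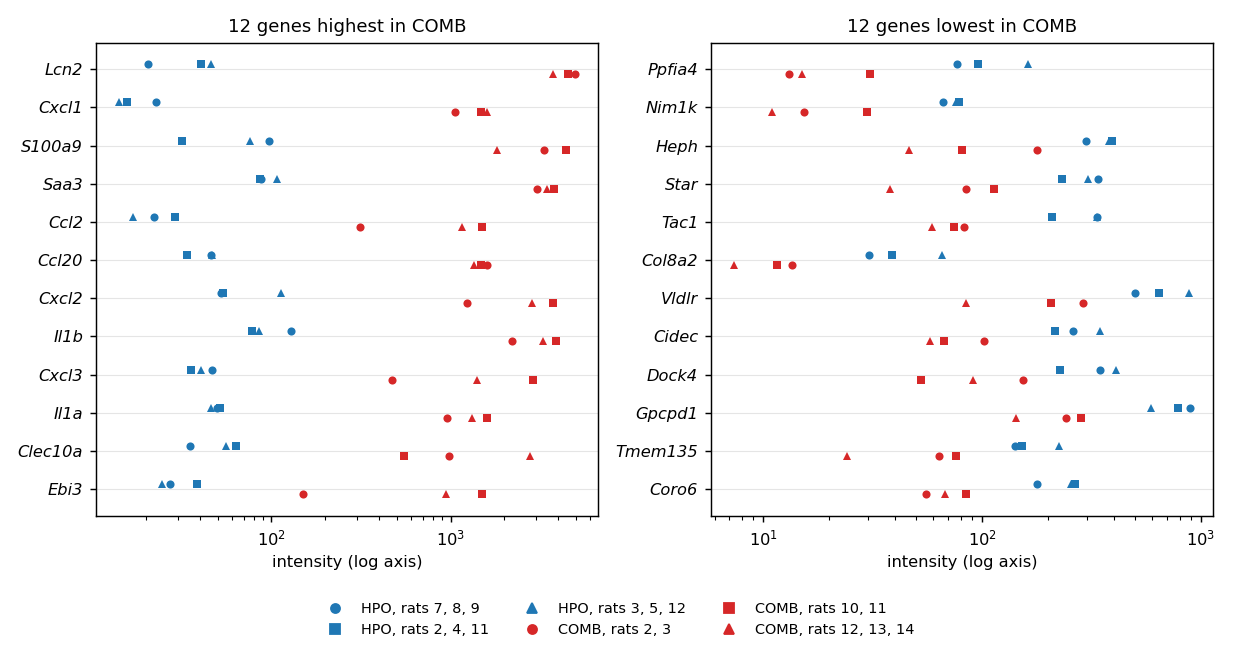
Intensity of the 12 genes with the largest rise (left) and the largest fall (right) in COMB against HPO, among called genes with a difference of at least 2-fold and no overlap. Each point is 1 pool on a log axis, blue for HPO and red for COMB, and the shape gives the pool. All 3 COMB points lie on 1 side of the 3 HPO points in every row because the genes were selected so, and the gap is widest for Lcn2.

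Promoters of these genes are shown because NF-kB, the factor at the end of the TLR4 pathway, binds a short DNA motif of which GGNNTTTCC is 1 spelling. Promoters are from RefSeq on the GRCr8 build, 250 bases before to 50 after the start of the gene. The table held 8 of the 12 promoters and not those of Ccl2, Cxcl3, Clec10a and Ebi3. The motif, searched on both strands, was in 3 of the 8 (37.5%), against 655 of 10627 promoters of all genes tested (6.16%). These 3 follow in order of the log2 difference, 5′ to 3′ on the strand of the gene, with the motif, on either strand, in capitals. They lie at chr14:17479272-17479571 (minus strand), chr9:91836909-91837208 (plus strand) and chr14:17467206-17467505 (minus strand).
Cxcl1: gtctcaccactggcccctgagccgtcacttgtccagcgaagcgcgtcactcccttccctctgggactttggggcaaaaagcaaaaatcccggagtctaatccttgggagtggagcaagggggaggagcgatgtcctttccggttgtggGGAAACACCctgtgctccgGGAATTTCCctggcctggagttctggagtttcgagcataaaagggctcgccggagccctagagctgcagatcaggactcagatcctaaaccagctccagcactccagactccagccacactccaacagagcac
Ccl20: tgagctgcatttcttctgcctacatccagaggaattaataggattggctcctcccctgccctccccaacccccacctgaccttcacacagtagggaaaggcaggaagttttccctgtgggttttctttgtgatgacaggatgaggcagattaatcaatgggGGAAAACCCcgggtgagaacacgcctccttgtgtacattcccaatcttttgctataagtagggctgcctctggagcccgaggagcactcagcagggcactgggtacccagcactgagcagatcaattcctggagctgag
Cxcl2: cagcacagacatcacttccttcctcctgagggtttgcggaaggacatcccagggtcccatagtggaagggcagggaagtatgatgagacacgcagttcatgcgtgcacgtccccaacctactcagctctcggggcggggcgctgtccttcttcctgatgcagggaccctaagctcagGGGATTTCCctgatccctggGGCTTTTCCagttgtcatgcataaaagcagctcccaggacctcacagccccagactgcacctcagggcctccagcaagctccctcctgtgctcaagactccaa
In Cxcl1 the match nearest to the start began 83 bases before it, in Ccl20 89 bases and in Cxcl2 53 bases. Over the called genes the motif was in 90 of 967 promoters of higher genes (9.31%) and in 61 of 1018 of lower genes (5.99%). None of the 11 promoters found for the 12 lowest genes held it. A match describes these letters only.

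The 12 genes with the largest fall serve varied functions, among them lipids, a neuropeptide and cell architecture. Ppfia4, a liprin scaffold protein, was at 76.8, 95.7 and 162 in HPO and 13.2, 30.9 and 15.03 in COMB (log2 difference -2.47 ± 0.34, adjusted p = 0.00075). Star, a protein that moves cholesterol to the inner mitochondrial membrane, was at 338, 233 and 305 in HPO and 84.2, 113 and 37.8 in COMB (log2 difference -2.00 ± 0.31, adjusted p = 0.0015). Tac1, the precursor of substance P, was at 334, 209 and 335 in HPO and 82.6, 74.5 and 58.9 in COMB (log2 difference -1.99 ± 0.24, adjusted p = 0.00038). The COMB pools of Tac1 were close together. Cidec, a protein of lipid droplets that enlarges them by fusion, was at 261, 215 and 344 in HPO and 102, 66.9 and 57.8 in COMB (log2 difference -1.86 ± 0.21, adjusted p = 0.00027). Vldlr, a receptor for triglyceride-rich lipoproteins, was at 499, 643 and 882 in HPO and 289, 207 and 84.6 in COMB (log2 difference -1.93 ± 0.35, adjusted p = 0.0035). Heph, the copper ferroxidase hephaestin, was at 298, 391 and 381 in HPO and 178, 80.7 and 46.3 in COMB (log2 difference -2.00 ± 0.42, adjusted p = 0.0079). In Vldlr and Heph COMB pool 3 was the lowest of COMB.

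Nim1k (a protein kinase), Col8a2 (a collagen of basement membranes), Dock4 (an exchange factor for small GTPases), Gpcpd1 (which cleaves glycerophosphocholine), Tmem135 (a membrane protein) and Coro6 (an actin-binding coronin) completed the 12, with log2 differences of -2.03, -1.93, -1.80, -1.80, -1.77 and -1.73. Gpcpd1 was the brightest of these, at 892, 782 and 594 in HPO and 241, 283 and 144 in COMB. Its highest COMB value was below its lowest HPO value. Across the 12 lowest genes, COMB pool 3 gave the lowest COMB value in 9.

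Gene lists were compiled by function, and each is described by how many tested members were called and by its median log2 difference, against a median of -0.02 over all genes. No test of a list as a whole was made. Members without a tested probe set are not counted, and a gene could pass the filter through the 3 COMB arrays alone. Motile cilium genes, interferon-stimulated genes, chemokines, the supply of peptides to MHC class I, airway mucins, the unfolded protein response and the feedback inhibitors of NF-kB had the largest shares called higher among lists other than cell markers, from 14 of 23 for the inhibitors to 15 of 16 for cilium genes, followed by arginine and nitric oxide genes (7 of 13). Without 1 pool the count fell to 8 of 23 for the inhibitors and 17 of 35 for interferon-stimulated genes (both without COMB pool 3), and to 8 of 18 for mucins (without COMB pool 2). Among lists other than cell markers, genes of lipid droplets and lipid transport (11 of 33) and lysosomal hydrolases (7 of 27) had the largest shares called lower.

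**Figure D2:**
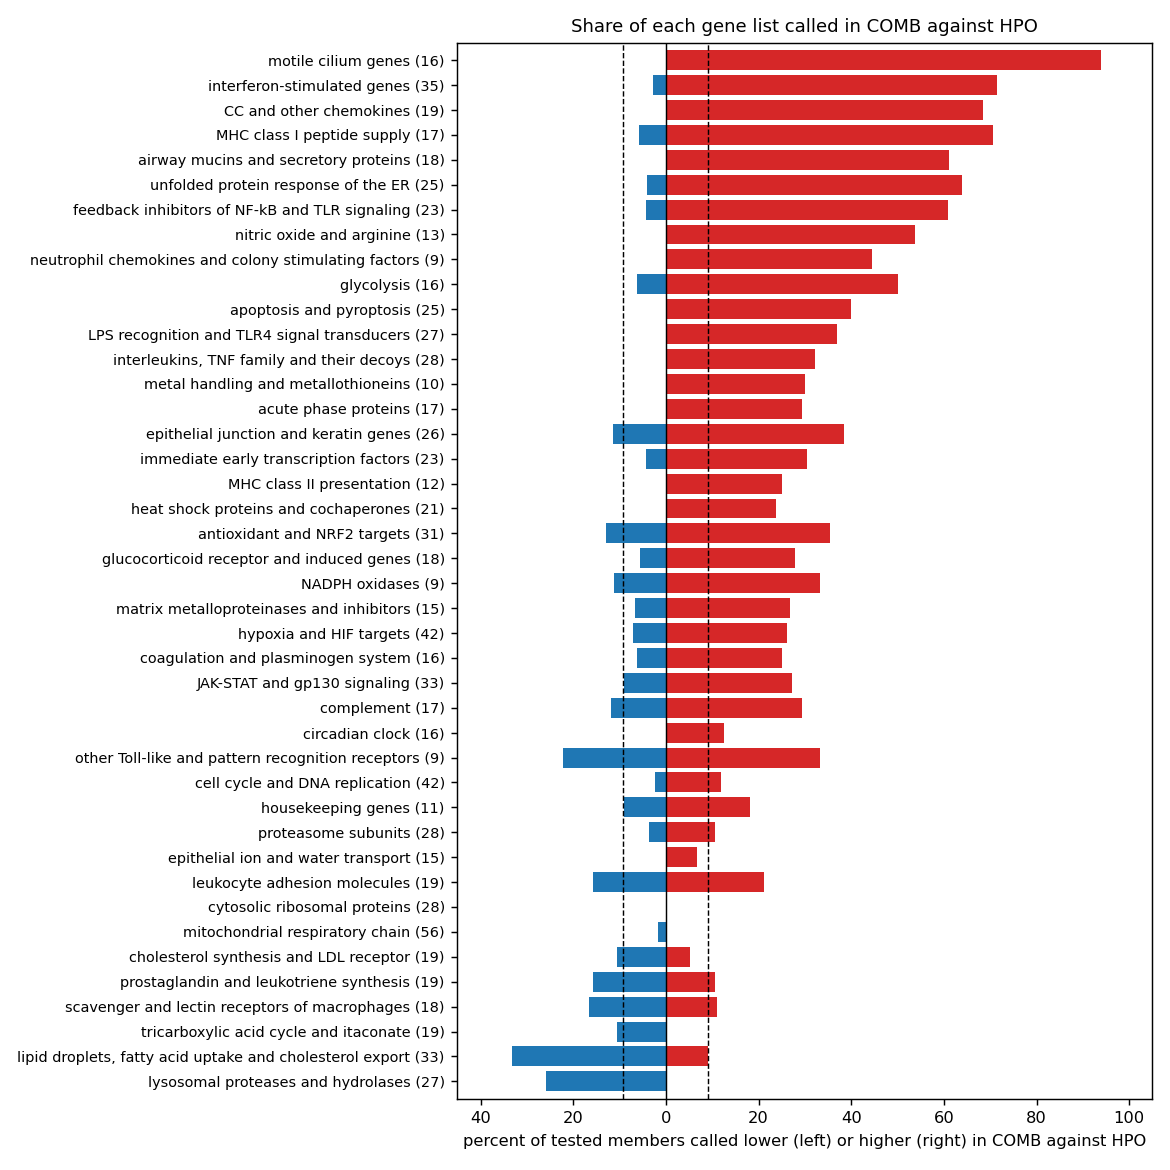
Percent of the tested members of each gene list (number in parentheses) called higher (red, right) or lower (blue, left) in COMB against HPO, for lists of at least 9 tested genes other than cell markers. Dashed lines mark the percentages over all genes, 9.18 and 9.36. The longest red bar is that of motile cilium genes (15 of 16) and the longest blue bar that of lipid genes (11 of 33).

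Genes that recognise LPS and carry the TLR4 signal rose in part. Of 27 tested, 10 were called higher and 0 lower (9.18% and 9.36% over all genes), with a median of 0.16. Lbp, the LPS binding protein, was at 19.1, 22.4 and 23.6 in HPO and 168, 132 and 83.1 in COMB (log2 difference 2.45 ± 0.24, adjusted p = 0.00012). Cd14, the co-receptor, was at 553, 547 and 393 in HPO and 1749.5, 2243 and 2963 in COMB (log2 difference 2.20 ± 0.26, adjusted p = 0.00031). Tlr4 was at 391, 308 and 353 in HPO and 500.2, 482 and 594 in COMB (log2 difference 0.58 ± 0.11, adjusted p = 0.0053), without overlap but a small rise beside those of Lbp and Cd14. Ly96, which encodes MD-2, was at 1037, 1042 and 966 in HPO and 907, 934 and 948 in COMB and did not pass the test (log2 difference -0.13 ± 0.09, adjusted p = 0.41). Myd88, the adaptor, was at 898, 797 and 969.8 in HPO and 1147, 1125 and 1207 in COMB (log2 difference 0.39 ± 0.11, adjusted p = 0.028), and its call was lost in 4 of the 12 fits without 1 pool (adjusted p up to 0.10). Among the NF-kB subunits, Nfkb2 and Relb, both of the noncanonical pathway, rose. Nfkb2 was at 139, 116 and 168 in HPO and 294, 441 and 408 in COMB (log2 difference 1.43 ± 0.20, adjusted p = 0.00072) and Relb at 68.97, 73.9 and 56.3 in HPO and 127, 163 and 219 in COMB (log2 difference 1.31 ± 0.18, adjusted p = 0.00068).

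Other pattern receptors went both ways. Tlr2, which recognises bacterial lipoproteins, was at 72.1, 62.8 and 72.9 in HPO and 315, 369 and 354 in COMB (log2 difference 2.30 ± 0.17, adjusted p = 2.3e-05). Tlr8, a receptor for RNA in endosomes, fell from 1149, 1169 and 1373 to 661, 399 and 482 (log2 difference -1.28 ± 0.17, adjusted p = 0.00051). Of the 9 tested receptors in this list 3 were called higher and 2 lower, with a median of 0.38, and 1 was called higher without COMB pool 3 or HPO pool 2. The other lower gene was Clec7a, the beta-glucan receptor dectin-1 (log2 difference -0.48 ± 0.08, adjusted p = 0.0025).

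Of 23 inhibitors that the pathway switches on, 14 were called higher and 1 lower (Tnfaip8l2, -0.64, adjusted p = 0.0053), with a median of 0.80. Nfkbiz, a nuclear IkB protein that modulates NF-kB, was at 132, 107 and 148 in HPO and 765, 920.3 and 991 in COMB (log2 difference 2.78 ± 0.27, adjusted p = 0.00011). Zc3h12a, which encodes regnase-1, an enzyme that degrades cytokine mRNAs, was at 45.5, 46.98 and 53.8 in HPO and 331, 272 and 330.2 in COMB (log2 difference 2.65 ± 0.15, adjusted p = 2.7e-06). Tnfaip3, encoding the deubiquitinase A20, was at 481, 395 and 474 in HPO and 627, 1226 and 1047 in COMB (log2 difference 1.05 ± 0.22, adjusted p = 0.0084). Nfkbia, which encodes IkB alpha, was at 887, 1126 and 1413 in HPO and 1536, 2715 and 3194 in COMB (log2 difference 1.08 ± 0.26, adjusted p = 0.016), and its call was lost without COMB pool 2 (adjusted p = 0.054) and without COMB pool 3 (adjusted p = 0.061) and without HPO pool 1 (adjusted p = 0.064). For Zc3h12a the 3 COMB pools agreed closely, while Tnfaip3 and Nfkbia were lowest in COMB pool 1. The count of higher inhibitors was 8 without COMB pool 3, 9 without HPO pool 1 and 18 without COMB pool 1. The NF-kB motif was in 5 of 20 promoters of this list (25%), against 6.16% over all genes.

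Among interleukins, TNF family members and their decoys, 9 of 28 were called higher and 0 lower, with a median of 0.71. Without COMB pool 1, 15 were called higher. Tnf was at 51.99, 29.01 and 45.5 in HPO and 243, 354 and 485 in COMB (log2 difference 3.05 ± 0.25, adjusted p = 4.1e-05), and every COMB pool was several-fold above every HPO pool. Il1r2, the decoy receptor for interleukin-1, was at 45.9, 81.4 and 94.4 in HPO and 429, 2806 and 841 in COMB (log2 difference 3.81 ± 0.82, adjusted p = 0.0089), with COMB pool 2 the highest. The probe set of Il6 stayed below the filter and was not tested.

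Chemokines of the CC and other families were called higher in 13 of 19 and lower in 0, with a median of 1.53. Ccl3 and Ccl4 encode macrophage inflammatory proteins. Ccl3 was at 597, 349 and 519 in HPO and 1950.3, 5005 and 4125 in COMB (log2 difference 2.84 ± 0.38, adjusted p = 0.00061) and Ccl4 at 184, 98.9 and 128 in HPO and 965, 2019 and 2217 in COMB (log2 difference 3.61 ± 0.40, adjusted p = 0.00022). As for Ccl2, COMB pool 1 was the lowest of COMB for both. Of 9 neutrophil chemokines and colony stimulating factors, 4 were called higher and 0 lower. Beside Cxcl1, Cxcl2 and Cxcl3 this was Csf3, granulocyte colony stimulating factor, at 17.2, 15.4 and 14.98 in HPO and 69.4, 131 and 127 in COMB (log2 difference 2.66 ± 0.22, adjusted p = 4.1e-05).

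Chemokines induced by interferon were uneven. Cxcl10 was at 85.02, 25.3 and 21.7 in HPO and 106, 725 and 1162 in COMB (log2 difference 3.59 ± 1.16, adjusted p = 0.056) and Cxcl11 at 142, 25.6 and 24.9 in HPO and 355, 787 and 1592 in COMB (log2 difference 4.05 ± 1.27, adjusted p = 0.0499), both ligands of CXCR3 on T cells. Cxcl10 did not pass the test with all pools. It passed without CTL pool 2 (adjusted p = 0.0093) or COMB pool 1 (adjusted p = 0.016) and in no other fit without 1 pool. The call of Cxcl11 was lost in 7 of the 12 fits without 1 pool (adjusted p up to 0.15). Without COMB pool 1, 3 of the 3 genes of this list were called higher, against 1 with it, and 0 were called without HPO pool 2, HPO pool 3 or either other COMB pool.

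Of 35 interferon-stimulated genes tested, 25 were called higher and 1 lower (Bst2, the membrane tether of viruses, -0.56, adjusted p = 0.011), with a median of 1.41, and 34 had a difference above 0. Isg15, a ubiquitin-like protein, was at 324, 108 and 131 in HPO and 971, 2403 and 2334 in COMB (log2 difference 3.40 ± 0.92, adjusted p = 0.027). Oasl, a relative of the antiviral oligoadenylate synthetases, was at 109, 59.5 and 84.4 in HPO and 699, 696 and 1052 in COMB (log2 difference 3.27 ± 0.60, adjusted p = 0.0038). Oas1a, an oligoadenylate synthetase that activates RNase L, was at 167, 84.6 and 87.04 in HPO and 388, 565 and 658 in COMB (log2 difference 2.28 ± 0.28, adjusted p = 0.00038). Irf7, a transcription factor of the interferon response, was at 492, 180.0 and 233 in HPO and 1279.6, 1264 and 1969 in COMB (log2 difference 2.42 ± 0.65, adjusted p = 0.027). HPO pool 1 was the highest of HPO in these 4 genes. The call of Isg15 was lost in 4 of the 12 fits without 1 pool (adjusted p up to 0.091) and that of Irf7 in 4 of the 12 fits without 1 pool (adjusted p up to 0.096). Of the 35, 29 were called higher without COMB pool 1, 17 without COMB pool 3 and 19 without HPO pool 2 or HPO pool 3. By pool the median difference from the HPO mean was 0.92, 1.55 and 2.02 in the order of the COMB pools.

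The motif GAAANNGAA, the core of the interferon-stimulated response element that IRF factors bind, was in 17 of 29 promoters of this list (58.6%), against 774 of 10627 over all genes (7.28%), searched on both strands. Over all higher genes it was in 102 of 967 (10.5%) and over all lower genes in 68 of 1018 (6.68%). Shown are the promoters of the called interferon-stimulated genes with the largest rise that held it, Irf7 at chr1:205799974-205800273 (minus strand) and Oas1a at chr12:41330216-41330515 (plus strand), with the motif, on either strand, in capitals. In Oas1a a pair of matches overlaps.
Irf7: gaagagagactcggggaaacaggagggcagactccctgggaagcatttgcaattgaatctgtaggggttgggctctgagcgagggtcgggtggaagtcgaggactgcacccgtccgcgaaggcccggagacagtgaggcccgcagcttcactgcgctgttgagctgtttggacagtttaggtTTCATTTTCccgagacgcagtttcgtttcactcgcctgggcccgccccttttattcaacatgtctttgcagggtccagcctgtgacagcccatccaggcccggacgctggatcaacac
Oas1a: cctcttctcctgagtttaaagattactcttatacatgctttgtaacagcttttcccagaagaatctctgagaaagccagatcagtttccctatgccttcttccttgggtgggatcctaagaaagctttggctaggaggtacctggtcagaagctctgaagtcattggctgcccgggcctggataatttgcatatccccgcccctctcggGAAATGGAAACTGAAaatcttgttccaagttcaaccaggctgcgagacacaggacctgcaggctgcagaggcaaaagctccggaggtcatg
In Irf7 the match began 68 bases before the start and in Oas1a the first began 41 bases before it.

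Genes that supply peptides to MHC class I were called higher in 12 of 17, with a median of 0.75. Ubd, a ubiquitin-like modifier that sends proteins to the proteasome, was at 58.9, 90.6 and 89.95 in HPO and 518, 2984 and 1532 in COMB (log2 difference 4.07 ± 0.50, adjusted p = 0.00037). Tap1, a subunit of the peptide transporter into the endoplasmic reticulum, was at 219, 223 and 277 in HPO and 629, 822 and 884 in COMB (log2 difference 1.69 ± 0.24, adjusted p = 0.00094). Nlrc5, the transactivator of class I genes, was at 36.4, 49.1 and 32.5 in HPO and 81.9, 187 and 128 in COMB (log2 difference 1.67 ± 0.31, adjusted p = 0.0042). The light chain B2m did not pass the test, at 8800.0, 8879 and 8241 in HPO and 8458, 9557 and 9727 in COMB. The gene of this list that fell was Lap3, a leucine aminopeptidase, at 412, 427 and 238 in HPO and 118, 125 and 116 in COMB (log2 difference -1.53 ± 0.20, adjusted p = 0.00049). Its COMB pools were nearly equal.

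For MHC class II, 3 of 12 genes were called higher and 0 lower, with a median of 0.60, and 1 was called without HPO pool 3. Ciita, the master transactivator of class II, was at 28.9, 31.5 and 20.7 in HPO and 85.9, 109 and 147 in COMB (log2 difference 2.02 ± 0.28, adjusted p = 0.00069). Cd74, the invariant chain, was at 1101, 1327 and 1111 in HPO and 3129, 3837 and 3769.8 in COMB (log2 difference 1.60 ± 0.46, adjusted p = 0.033), a call lost in 5 of the 12 fits without 1 pool (adjusted p up to 0.088). RT1-Ba, an alpha chain, was at 167, 282 and 51.98 in HPO and 2103, 762 and 919 in COMB (log2 difference 3.06 ± 0.75, adjusted p = 0.017), a call lost without HPO pool 3 (adjusted p = 0.059). RT1-Da was at 672, 832 and 655 in HPO and 2305, 2209 and 2186 in COMB, with no overlap, and did not pass the test (log2 difference 1.64 ± 0.56, adjusted p = 0.071). It passed without CTL pool 1 (adjusted p = 0.0047) or CTL pool 2 (adjusted p = 0.0067) and in no other fit without 1 pool. The spread among CTL pools enters this test.

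Acute phase and iron genes rose strongly where they rose. Of 17 acute phase genes 5 were called higher and 0 lower, with a median of 0.40. Cp, the copper ferroxidase ceruloplasmin, was at 36.6, 30.4 and 44.7 in HPO and 769.9, 387 and 450.1 in COMB (log2 difference 3.76 ± 0.35, adjusted p = 7.4e-05). Hp, haptoglobin, which binds free hemoglobin, was at 122, 99.1 and 140.2 in HPO and 1018, 564 and 678 in COMB (log2 difference 2.61 ± 0.25, adjusted p = 9.3e-05). Slc11a2, the iron importer DMT1, was at 99.4, 93.8 and 124 in HPO and 598, 332 and 389 in COMB (log2 difference 2.01 ± 0.20, adjusted p = 0.00013). Heph, the other ferroxidase, had fallen, as given above. Metallothionein genes parted, with Mt2A at 687, 675 and 720.4 in HPO and 2213, 1313 and 3262 in COMB (log2 difference 1.61 ± 0.24, adjusted p = 0.0012) and Mt1 at 197, 210.0 and 211 in HPO and 204, 168 and 236 in COMB (log2 difference -0.04 ± 0.16, adjusted p = 0.91).

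In the complement system 5 of 17 genes were called higher and 2 lower (C5ar1, -0.38, and Cfp, -0.79), with a median of 0.57, and 1 was called lower when any single pool of COMB or HPO other than COMB pool 1 was left out. C3, the central component, was at 249, 252 and 392 in HPO and 3311, 2796 and 1818 in COMB (log2 difference 3.14 ± 0.35, adjusted p = 0.00024). Serping1, the inhibitor of C1, was at 32.02, 61.4 and 57.9 in HPO and 598, 216 and 279 in COMB (log2 difference 2.74 ± 0.53, adjusted p = 0.0050). Itgam, the alpha chain of complement receptor CR3 and a marker of neutrophils and monocytes, was at 21.1, 23.8 and 24.5 in HPO and 75.9, 200.2 and 126 in COMB (log2 difference 2.38 ± 0.39, adjusted p = 0.0020). C3 was highest in COMB pool 1, and Itgam was lowest there.

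Antioxidant genes and NRF2 targets were called higher in 11 of 31 and lower in 4, with a median of 0.34. The lower genes were Cat, Gpx1, Gsr and Mgst1 (log2 differences -0.88, -0.38, -0.69 and -0.49). Gpx2, a glutathione peroxidase of epithelia, was at 419, 386 and 554 in HPO and 4485, 2758 and 3339 in COMB (log2 difference 2.95 ± 0.24, adjusted p = 4.1e-05). Sod2, the mitochondrial superoxide dismutase and a known NF-kB target, was at 1485, 1192 and 1236 in HPO and 4387, 4493 and 5026 in COMB (log2 difference 1.83 ± 0.11, adjusted p = 3.7e-06). Slc7a11, the cystine importer, was at 21.3, 22.6 and 26.8 in HPO and 75.8, 88.7 and 58.6 in COMB (log2 difference 1.60 ± 0.31, adjusted p = 0.0046). Among NADPH oxidase genes, Noxo1, the organizer of NOX1, was at 23.8, 23.9 and 23.6 in HPO and 371, 196 and 197 in COMB (log2 difference 3.30 ± 0.28, adjusted p = 4.2e-05) and Duox2, a dual oxidase of epithelia, at 44.1, 57.96 and 105 in HPO and 587, 494 and 208 in COMB (log2 difference 2.58 ± 0.50, adjusted p = 0.0052). The phagocyte subunits differed from these. Cybb was at 5623, 5486 and 4904 in HPO and 4757, 4705 and 4790.4 in COMB and did not pass the test (log2 difference -0.17 ± 0.09, adjusted p = 0.25), and Ncf1 fell to 27.3, 29.3 and 25.4 from 38.7, 34.5 and 51.9 (log2 difference -0.57 ± 0.14, adjusted p = 0.015), a call lost without COMB pool 3 (adjusted p = 0.052).

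Markers of neutrophils rose in part. S100a8, the partner of S100a9, was at 56.4, 36.5 and 82.6 in HPO and 1001, 1512 and 658 in COMB (log2 difference 4.15 ± 0.66, adjusted p = 0.0017), and Mmp9, gelatinase B, at 12.2, 15.7 and 10.5 in HPO and 57.2, 93.8 and 88.7 in COMB (log2 difference 2.54 ± 0.30, adjusted p = 0.00030). Csf3r, the receptor for granulocyte colony stimulating factor, was at 40.04, 33.3 and 80.3 in HPO and 86.3, 508 and 151 in COMB (log2 difference 1.96 ± 0.54, adjusted p = 0.028), a call lost without COMB pool 2 (adjusted p = 0.065) and without HPO pool 1 (adjusted p = 0.083) and without HPO pool 2 (adjusted p = 0.099). Of the 8 markers tested 6 were called higher and 2 lower, Camp and Cxcr1, and 3 were called higher without COMB pool 2 or without HPO pool 1 or HPO pool 2, and 0 lower without COMB pool 1, COMB pool 3, HPO pool 1 or HPO pool 3. The granule gene Camp was at 186, 124 and 169.6 in HPO and 101, 132 and 100.3 in COMB (log2 difference -0.51 ± 0.16, adjusted p = 0.049), a call lost in 10 of the 12 fits without 1 pool (adjusted p up to 0.17), and the chemokine receptor Cxcr1 at 763, 492 and 599 in HPO and 373, 451 and 349.8 in COMB (log2 difference -0.64 ± 0.18, adjusted p = 0.030), a call lost in 4 of the 12 fits without 1 pool (adjusted p up to 0.11). Mpo and Elane had no probe set that names them alone. The summed intensity of the 8 markers was 767.8 to 1187 in HPO and 3267 to 7251 in COMB. S100a8 and S100a9 made up most of each COMB sum, so it does not describe the other markers. S100a8 and S100a9 are also made by monocytes and by inflamed epithelium. The part of neutrophil numbers in the rise of chemokine and cytokine genes was not tested.

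Among 9 markers of recruited monocytes and macrophages, 4 were called higher and 2 lower, and 1 was called lower when any single pool of COMB or HPO other than COMB pool 1 was left out. The 2 lower genes were Csf1r, the receptor for macrophage colony stimulating factor (log2 difference -0.66 ± 0.13, adjusted p = 0.0063), and S100a4, a calcium-binding protein (log2 difference -0.85 ± 0.25, adjusted p = 0.037). The 9 markers had summed intensities of 5737 to 6710 in HPO and 8310 to 10350 in COMB. Ly6c was at 147, 144 and 63.4 in HPO and 769, 1000.5 and 934 in COMB (log2 difference 3.01 ± 0.60, adjusted p = 0.0057), and Vcan, the proteoglycan versican, at 66.2, 70.2 and 72.7 in HPO and 857, 209 and 281 in COMB (log2 difference 2.39 ± 0.53, adjusted p = 0.010). Vcan was highest in COMB pool 1.

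T and NK cell markers differed widely between the COMB pools. Their 23 tested genes summed to 1486 to 1909 in HPO and to 2184, 12384 and 10410.0 in COMB. Cd3e, a chain of the T cell receptor complex, was at 168, 156 and 145 in HPO and 213, 1319 and 762 in COMB (log2 difference 1.93 ± 0.59, adjusted p = 0.046). Gimap4, a GTPase of lymphocytes, was at 77.5, 80.9 and 60.3 in HPO and 136, 1033 and 785 in COMB (log2 difference 2.71 ± 0.85, adjusted p = 0.049). Nkg7, a granule protein of cytotoxic cells, was at 86.6, 64.6 and 66.3 in HPO and 83.1, 625 and 751 in COMB and did not pass the test (log2 difference 2.23 ± 0.73, adjusted p = 0.060). With all pools 7 of the 23 were called higher and 0 lower. Without COMB pool 1 there were 19, and without any single other pool of COMB or HPO there was 1. The call of Cd3e was lost in 9 of the 12 fits without 1 pool (adjusted p up to 0.16) and that of Gimap4 in 9 of the 12 fits without 1 pool (adjusted p up to 0.16). The 9 tested B cell markers summed to 3504 to 6241 in HPO and 2826 to 5843 in COMB, so the groups overlapped. Among them Ms4a1 (CD20) was at 37.5, 39.8 and 25.4 in HPO and 28.2, 337 and 237 in COMB (log2 difference 1.94 ± 0.81, adjusted p = 0.14), and 1 of the 9 was called higher, 5 without COMB pool 1 and 0 without any single other pool of COMB or HPO. Whether the lymphocyte RNA took part in the rise of interferon genes in the same pools was not tested.

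Epithelial genes rose as well, and among the COMB pools they were highest in pool 1, where the lymphocyte markers were lowest. Of 33 motile cilium genes in the list only 16 were tested. Of these 16, 15 were called higher and 0 lower, with a median of 1.48. Foxj1, the transcription factor of multiciliated cells, was at 135, 119 and 157 in HPO and 388, 382 and 256 in COMB (log2 difference 1.30 ± 0.19, adjusted p = 0.0010). Tekt1 and Tekt2 encode tektins of the axoneme, and Dnah7 a heavy chain of the inner dynein arm. Tekt1 was at 55.2, 38.3 and 72.1 in HPO and 451, 333 and 198 in COMB (log2 difference 2.51 ± 0.30, adjusted p = 0.00032). Tekt2 was at 34.4, 32.9 and 26.8 in HPO and 306, 123 and 109 in COMB (log2 difference 2.32 ± 0.32, adjusted p = 0.00076), and Dnah7 was at 10.8, 11.5 and 11.3 in HPO and 83.7, 51.9 and 21.9 in COMB (log2 difference 1.94 ± 0.38, adjusted p = 0.0051). No COMB value of these 4 genes overlapped HPO, and all were lowest in COMB pool 3, which was the lowest COMB pool in all 16 cilium genes. By pool the median difference of the list from the HPO mean was 1.86, 1.59 and 0.85. Without COMB pool 1, the highest of these, 15 of 16 were called higher with a median of 1.24. Dnah7 in HPO lay near the 20th percentiles of the HPO arrays (11.1, 11.3 and 10.1), which is the floor of the filter.

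Airway mucins and secretory proteins were called higher in 11 of 18 and lower in 0, with a median of 1.21. The largest rise in this list was that of S100a9, which is also counted among the neutrophil markers. Muc5b, the main mucin of the healthy airway, was at 772, 468 and 677 in HPO and 2828, 2429.9 and 1543 in COMB (log2 difference 1.81 ± 0.33, adjusted p = 0.0034). Agr2, a disulfide isomerase that mucins need to fold, was at 463, 292 and 479 in HPO and 2121, 2002 and 879 in COMB (log2 difference 1.95 ± 0.34, adjusted p = 0.0031). Dmbt1, a scavenger glycoprotein of mucus, was at 67.5, 45.7 and 36.5 in HPO and 229, 119 and 156 in COMB (log2 difference 1.72 ± 0.29, adjusted p = 0.0023). The count was 9 of 18 and the median 0.92 without COMB pool 1. Scgb1a1, given above, did not pass the test (log2 difference 0.29 ± 0.15, adjusted p = 0.23). Markers of airway epithelium summed to 21160 to 22300 in HPO and 29110 to 39050 in COMB, and 11 of 18 were called higher and 0 lower, or 10 and 1 without COMB pool 1. Since 17 of these 18 genes are also in the lists of cilium, mucin or junction genes, this list is no separate evidence. Whether COMB pools held more shed epithelial cells was not tested.

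Junction and keratin genes of epithelia were called higher in 10 of 26 and lower in 3, with a median of 0.45, and in 6 without HPO pool 2. Without COMB pool 1 there were 9 higher and 4 lower, with a median of 0.24. The lower genes were Jup, Krt7 and Ocln (log2 differences -0.52, -1.01 and -0.70), and 1 was called lower without COMB pool 2, COMB pool 3, HPO pool 1 or HPO pool 3. Elf3, an epithelial transcription factor, was at 63.6, 59.8 and 115 in HPO and 350.3, 299 and 320.1 in COMB (log2 difference 2.07 ± 0.22, adjusted p = 0.00019). Krt18 was at 147, 132 and 169.6 in HPO and 722, 544 and 342 in COMB (log2 difference 1.77 ± 0.27, adjusted p = 0.0012) and its partner keratin Krt8 at 164, 122 and 245 in HPO and 604, 567 and 353 in COMB (log2 difference 1.53 ± 0.30, adjusted p = 0.0048). Epcam, an adhesion molecule of epithelia, was at 162, 164 and 241 in HPO and 845, 495 and 385 in COMB (log2 difference 1.54 ± 0.27, adjusted p = 0.0031). Cdh1, E-cadherin, was at 158, 159 and 256 in HPO and 596, 346 and 289 in COMB and did not pass the test (log2 difference 1.07 ± 0.35, adjusted p = 0.062).

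Markers of the alveolar epithelium were called higher in 6 of 16 and lower in 1, also without COMB pool 1, with 0 lower without COMB pool 2, COMB pool 3 or HPO pool 3, and their sum went from 2587 to 2896 in HPO to 3917 to 5314 in COMB. Sftpc, surfactant protein C of type II cells, was at 147, 127 and 251 in HPO and 772, 559.8 and 518 in COMB (log2 difference 1.85 ± 0.33, adjusted p = 0.0031). Sftpd, surfactant protein D, was at 348, 380.5 and 379 in HPO and 1292, 785 and 648 in COMB (log2 difference 1.23 ± 0.24, adjusted p = 0.0056). Ager, the marker of type I cells, was at 53.7, 47.98 and 79.1 in HPO and 59.9, 77.04 and 74.6 in COMB and did not pass the test (log2 difference 0.25 ± 0.17, adjusted p = 0.39). Of 12 endothelial and fibroblast markers and 9 of erythrocytes and platelets, 0 were called by limma in either direction, with Pecam1 at 49.3, 51.4 and 51.3 in HPO and 51.5, 64.2 and 53.9 in COMB and Hbb at 9377, 7688 and 10853 in HPO and 11619, 10683 and 9413 in COMB. At an unadjusted p below 0.05 there were 0 and 1 of them, and without COMB pool 2 limma called 2 of the 12 higher.

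**Figure D3:**
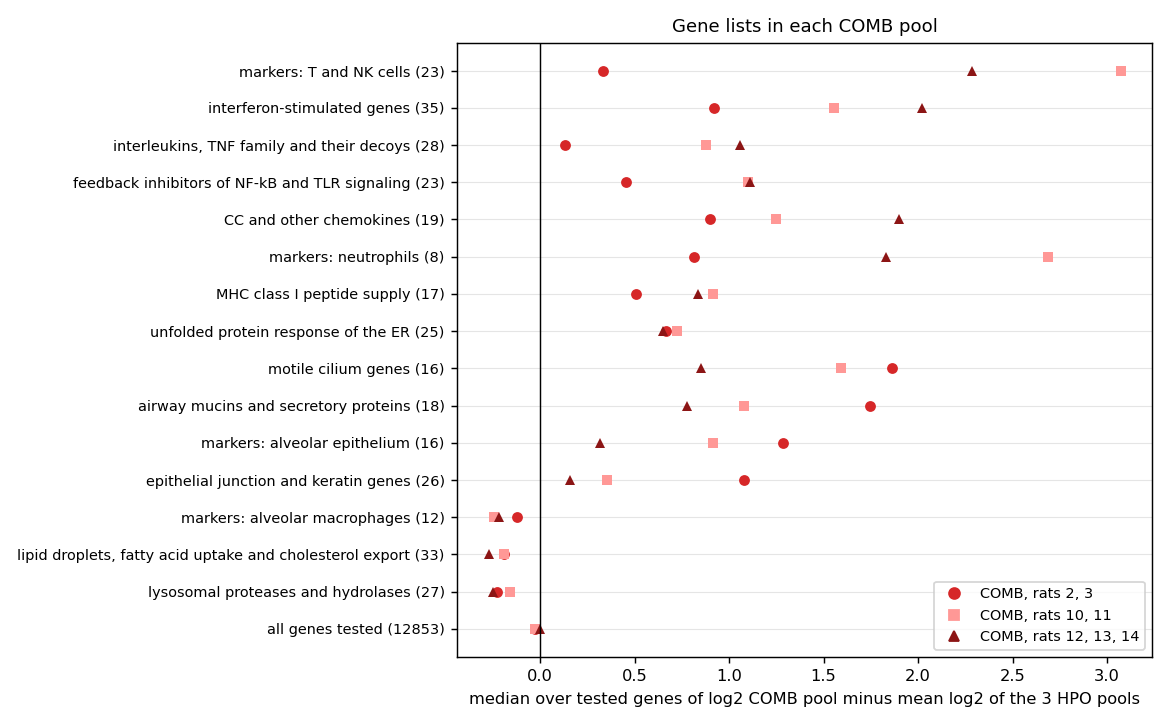
Median over the tested genes of each list (number in parentheses) of the log2 value of 1 COMB pool minus the mean log2 of the 3 HPO pools. Each symbol is 1 COMB pool. COMB pool 1 is lowest for T and NK cell markers, interferon-stimulated genes and cytokines and highest for cilium, mucin and junction genes, while the unfolded protein response is nearly equal in the 3 pools.

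Genes of the resident macrophage fell in part. Pparg, the nuclear receptor that alveolar macrophages need, was at 629, 566 and 624 in HPO and 296, 285 and 229.6 in COMB (log2 difference -1.17 ± 0.12, adjusted p = 0.00019). Cd36, a receptor for oxidized lipids and fatty acids and a target of PPAR gamma, was at 683, 802 and 704 in HPO and 351, 428 and 414 in COMB (log2 difference -0.87 ± 0.13, adjusted p = 0.0010). Olr1, the oxidized LDL receptor LOX-1, was at 1037, 772 and 656 in HPO and 454, 432 and 296 in COMB (log2 difference -1.06 ± 0.19, adjusted p = 0.0037). Cd36 and Olr1 belong to a list of 18 scavenger and lectin receptors of macrophages, of which 3 were called lower and 2 higher. Its median was -0.04, and the shares over all genes were 9.36% and 9.18%. The 2 higher were Clec10a and Fcgr2b (log2 differences 4.49 and 2.49). Itgax (CD11c) was at 1398, 898 and 1327 in HPO and 1612, 1039 and 848 in COMB and Mrc1 at the values above, and neither passed the test (log2 differences -0.08 ± 0.22, adjusted p = 0.87 and -0.09 ± 0.10, adjusted p = 0.61). Of 12 alveolar macrophage markers 4 were called lower and 2 higher, and 2 were called lower without COMB pool 3 or HPO pool 2. The 2 that rose were Car4, carbonic anhydrase 4, at 17.7, 15.3 and 13.3 in HPO and 64.9, 744 and 309 in COMB (log2 difference 3.92 ± 0.74, adjusted p = 0.0043), and Chi3l1, a chitinase-like protein, at 174, 69.9 and 152 in HPO and 1443, 1263 and 656 in COMB (log2 difference 3.10 ± 0.61, adjusted p = 0.0052), both of which other cells also make. The summed markers went from 33390 to 33930 in HPO to 29500 to 31630 in COMB.

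Of 33 genes of lipid droplets, fatty acid uptake and cholesterol export, 11 were called lower and 3 higher, with a median of -0.26. Star and Cidec led the fall, as given above. Mgll, the lipase of monoglycerides, was at 854, 583 and 754 in HPO and 343, 344 and 199 in COMB (log2 difference -1.33 ± 0.20, adjusted p = 0.0012), and Abca1, the cholesterol exporter, at 1701, 1777 and 1983 in HPO and 1172, 768 and 823 in COMB (log2 difference -1.004 ± 0.22, adjusted p = 0.0098). Against these, Ch25h, which makes 25-hydroxycholesterol and is induced by interferon and TLR signals, rose from 1446, 1099 and 1336 to 3951, 3081 and 4092 (log2 difference 1.52 ± 0.16, adjusted p = 0.00020). Lysosomal hydrolases were called lower in 7 of 27 and higher in 0, with a median of -0.18. Asah1, acid ceramidase, was at 1763, 1866 and 1362 in HPO and 897, 979 and 855 in COMB (log2 difference -0.86 ± 0.13, adjusted p = 0.0015), and Ctsh, cathepsin H, at 2199.7, 2156 and 2784 in HPO and 1594, 1619.9 and 1509 in COMB (log2 difference -0.59 ± 0.12, adjusted p = 0.0054). Lyz2, lysozyme, and Ctsd, cathepsin D, did not pass the test (log2 differences -0.18 ± 0.13, adjusted p = 0.42 and -0.15 ± 0.09, adjusted p = 0.33).

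Among enzymes of lipid mediators 3 of 19 were called lower and 2 higher, with a median of 0.04, and 4 were called higher without COMB pool 1. Alox5 (5-lipoxygenase) was at 908, 854 and 1093 in HPO and 474, 485 and 383 in COMB (log2 difference -1.09 ± 0.15, adjusted p = 0.00062) and Ltc4s (leukotriene C4 synthase) at 352, 486 and 441 in HPO and 171, 170.0 and 236 in COMB (log2 difference -1.15 ± 0.18, adjusted p = 0.0014). Hpgds (hematopoietic prostaglandin D synthase) was at 30.97, 38.5 and 36.3 in HPO and 318, 454 and 111 in COMB (log2 difference 2.81 ± 0.37, adjusted p = 0.00059), and Pla2g2a, a secreted phospholipase, at 21.6, 27.9 and 28.6 in HPO and 372, 101 and 159 in COMB (log2 difference 2.76 ± 0.52, adjusted p = 0.0044). Ptgs2, cyclooxygenase-2, was at 9.29, 10.3 and 10.4 in HPO and 68.6, 108 and 37.3 in COMB with no overlap and did not pass the test (log2 difference 2.59 ± 0.84, adjusted p = 0.058). It passed without CTL pool 1 (adjusted p = 0.042) or CTL pool 2 (adjusted p = 0.00032) and in no other fit without 1 pool. The remaining called gene was Lta4h, the hydrolase that makes leukotriene B4 (log2 difference -0.53 ± 0.08, adjusted p = 0.0017).

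The unfolded protein response of the endoplasmic reticulum rose evenly. Of 25 genes 16 were called higher and 1 lower (Edem1, -0.43, adjusted p = 0.0079), with a median of 0.70 and pool medians of 0.67, 0.72 and 0.65. Hspa5, the chaperone BiP, was at 843, 696 and 724 in HPO and 1735, 1777 and 1847 in COMB (log2 difference 1.25 ± 0.10, adjusted p = 4.2e-05). Creld2, a secreted protein induced by ER stress, was at 231, 184 and 245 in HPO and 734, 712 and 599 in COMB (log2 difference 1.63 ± 0.12, adjusted p = 2.4e-05), and Hyou1, a chaperone that works with BiP, at 67.8, 64.9 and 53.7 in HPO and 163, 153 and 138 in COMB (log2 difference 1.28 ± 0.11, adjusted p = 4.1e-05). The values varied little within either group. Ddit3, the factor CHOP, was at 64.9, 55.8 and 82.1 in HPO and 93.5, 263 and 209 in COMB (log2 difference 1.36 ± 0.32, adjusted p = 0.014), a call lost without COMB pool 2 (adjusted p = 0.051) and without COMB pool 3 (adjusted p = 0.053) and without HPO pool 2 (adjusted p = 0.056). Of 21 cytosolic heat shock proteins and cochaperones 5 were called higher and 0 lower, with a median of 0.20, and 2 to 4 were called higher when 1 pool of COMB or HPO was left out. Hsph1 was at 328, 252 and 342 in HPO and 621, 645 and 654 in COMB (log2 difference 1.07 ± 0.16, adjusted p = 0.0010) and Stip1 at 123, 116 and 169 in HPO and 249, 253 and 269.8 in COMB (log2 difference 0.93 ± 0.13, adjusted p = 0.00071), while Hspa1a did not pass the test (log2 difference 0.69 ± 0.33, adjusted p = 0.19).

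Genes of cell death were called higher in 10 of 25 and lower in 0, with a median of 0.52. Several that rose oppose death. Cflar, which encodes the caspase-8 inhibitor cFLIP, was at 179.9, 207 and 163 in HPO and 666, 882 and 1136 in COMB (log2 difference 2.25 ± 0.17, adjusted p = 2.2e-05). Birc3, an inhibitor of apoptosis and NF-kB target, was at 43.1, 40.7 and 33.6 in HPO and 201, 402 and 377 in COMB (log2 difference 2.97 ± 0.48, adjusted p = 0.0019). Others promote it, as Fas, the death receptor, at 58.3, 53.97 and 69.4 in HPO and 84.4, 188 and 145 in COMB (log2 difference 1.12 ± 0.23, adjusted p = 0.0069), and Ripk3, the kinase of necroptosis, at 128, 128 and 149.8 in HPO and 301, 394 and 620.3 in COMB (log2 difference 1.63 ± 0.22, adjusted p = 0.00068). Casp1 was at 1051, 907 and 924 in HPO and 974, 1366 and 1527 in COMB and did not pass the test (log2 difference 0.40 ± 0.15, adjusted p = 0.096).

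Hypoxia-inducible genes were examined because both groups were hypoxic. Of 42 tested genes of hypoxia and targets of HIF, 11 were called higher and 3 lower, with a median of 0.26. The 11 include Hif1a and Epas1, which encode subunits of HIF. The lower genes were Bnip3, Mxi1 and Ndrg1 (log2 differences -0.43, -0.45 and -0.29). The call of Mxi1 was lost in 9 of the 12 fits without 1 pool (adjusted p up to 0.11). That of Ndrg1 was lost in 10 of the 12 (adjusted p up to 0.14). Of the 42, 7 were higher without HPO pool 2 and 1 lower without HPO pool 3. Hif1a itself was at 1157, 1004 and 1039 in HPO and 1623, 1706 and 1833 in COMB (log2 difference 0.69 ± 0.15, adjusted p = 0.0079), without overlap. Epas1, which encodes the paralog HIF-2 alpha, was at 386, 374 and 436 in HPO and 1302, 907 and 729 in COMB (log2 difference 1.26 ± 0.21, adjusted p = 0.0022). Edn1, the vasoconstrictor endothelin-1, was at 30.2, 46.1 and 38.5 in HPO and 110.0, 126 and 126 in COMB (log2 difference 1.65 ± 0.18, adjusted p = 0.00024). Glycolytic genes were called higher in 8 of 16 and lower in 1, with a median of 0.37 and no member changed 2-fold. Tpi1 was at 366, 307 and 471 in HPO and 633, 701 and 720.3 in COMB (log2 difference 0.86 ± 0.14, adjusted p = 0.0021) and Pfkl at 143, 109 and 132 in HPO and 181, 262 and 332 in COMB (log2 difference 0.97 ± 0.20, adjusted p = 0.0073), while Ldha was at 2355, 2017 and 2447 in HPO and 3020.0, 2640.5 and 3109 in COMB (log2 difference 0.36 ± 0.11, adjusted p = 0.038), a call lost in 8 of the 12 fits without 1 pool (adjusted p up to 0.13). The count of higher glycolytic genes was 4 without COMB pool 3 or HPO pool 2 and 5 without HPO pool 1.

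Respiratory chain and ribosomal genes gave few calls. The tricarboxylic acid cycle list had 10.5% called lower, near the 9.36% over all genes. Of 56 genes of the respiratory chain 1 was called lower and 0 higher, with a median of -0.05, and that gene was Sdhd, a subunit of complex II (log2 difference -0.40 ± 0.09, adjusted p = 0.011). Without COMB pool 1 there were 3. Of 19 genes of the tricarboxylic acid cycle 2 were called lower and 0 higher, Suclg2 (1238, 1214 and 1460.4 in HPO and 972, 868 and 897 in COMB, log2 difference -0.51 ± 0.11, adjusted p = 0.0074) and Aco1, the cytosolic aconitase and iron sensor (499.9, 523 and 581 in HPO and 377, 342 and 290.4 in COMB, log2 difference -0.67 ± 0.12, adjusted p = 0.0039), and 4 were lower without COMB pool 1. Of 28 cytosolic ribosomal protein genes 0 were called by limma, with 1 called lower without HPO pool 3, 2 at an unadjusted p below 0.05 and a median of 0.05, and Rpl3 was at 5588, 5412 and 5715 in HPO and 5403, 5850.1 and 5705 in COMB.

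Arginine and nitric oxide genes were called higher in 7 of 13 and lower in 0, with a median of 0.53, or in 4 without HPO pool 2. Arg1, arginase 1, was at 1198, 1245 and 636 in HPO and 1791, 3015 and 4049.6 in COMB (log2 difference 1.51 ± 0.30, adjusted p = 0.0063). Gch1, which makes the cofactor of nitric oxide synthases, was at 291, 255 and 324 in HPO and 555, 713 and 918 in COMB (log2 difference 1.30 ± 0.18, adjusted p = 0.00078), and Ass1, which rebuilds arginine from citrulline, at 16.9, 18.8 and 20.7 in HPO and 137, 63.4 and 86.6 in COMB (log2 difference 2.22 ± 0.46, adjusted p = 0.0069). Nos2, the inducible synthase, was at 172, 199 and 134 in HPO and 138, 146 and 165 in COMB and did not pass the test (log2 difference -0.15 ± 0.14, adjusted p = 0.52). Of the adhesion genes, Icam1 was at 374, 312 and 352 in HPO and 1049, 1156 and 1488 in COMB (log2 difference 1.82 ± 0.20, adjusted p = 0.00020), and Sdc4, the heparan sulfate proteoglycan syndecan-4, at 145, 141 and 135 in HPO and 1568, 2491 and 2825 in COMB (log2 difference 3.98 ± 0.43, adjusted p = 0.00020). The list had 4 of 19 higher and 3 lower (Cd44, -0.35, Cd9, -0.47, and Itgal, -0.48). Timp1, an inhibitor of matrix metalloproteinases, was at 163, 149.6 and 249 in HPO and 1398, 734 and 1246 in COMB (log2 difference 2.57 ± 0.26, adjusted p = 0.00016).

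The response to LPS in hypoxia was then set against the response in normal air, LPS minus CTL. The 2 differences share no array, but the variance behind both tests was estimated over all 12 arrays, and with the LPS and CTL arrays alone 1147 probe sets were called in normal air. In normal air 159 genes were called higher (1.24%) and 198 lower (1.54%). Over probe sets 525 were called with all pools, and without 1 pool the number was 64 without CTL pool 3, 85 without CTL pool 1, 118, 199 and 120 without LPS pools 1, 2 and 3, 325 without HPO pool 1 and 393 to 783 without each of the other 6 pools. Of these 357 genes 279 were also called in COMB against HPO, 78.2% of them and 11.7% of the 2383 genes called in hypoxia, and 278 of the 279 had the same direction. Of the 1180 genes higher in hypoxia 969 had a difference above 0 in normal air, and of the 1203 lower genes 1095 had one below 0. Median log2 differences of the higher genes were 0.86 in hypoxia and 0.26 in normal air, and those of the lower genes were -0.55 and -0.28. Since these genes were picked on the hypoxia values, that gap says nothing by itself. For the genes picked in normal air the medians were 0.83 in normal air and 0.93 in hypoxia for higher genes and -0.66 in both for lower genes. These genes were in turn picked on the normal-air values, so near-equal medians do not show responses of like size. Across all 12853 genes, which are not independent, the log2 differences correlated at 0.564 (Pearson) and 0.475 (Spearman). By the labels CTL had a saline injection and HPO had none, so any gap between the responses may hold the injection as well as hypoxia.

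**Figure D4:**
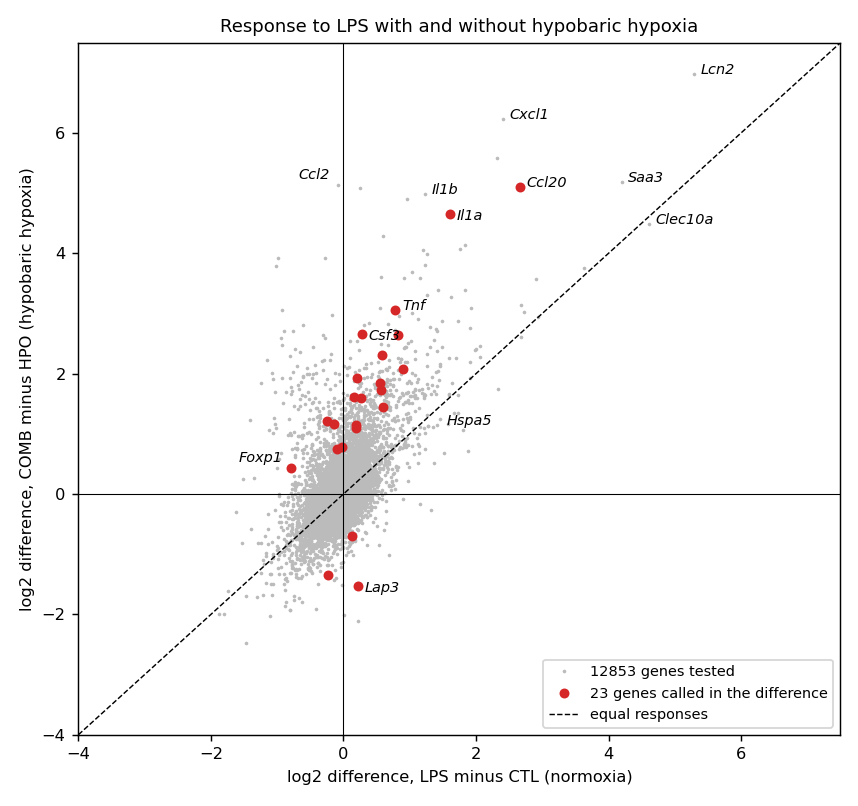
Log2 difference of each of 12853 genes for LPS against CTL in normal air (horizontal axis) and COMB against HPO in hypobaric hypoxia (vertical axis), with the 23 genes whose responses differed in red and a dashed line of equal responses. Lcn2, Saa3 and Clec10a lie high on both axes, while Ccl2 lies high on the vertical axis and near 0 on the horizontal one.

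Several genes, picked here after their values were seen, had close estimates with and without hypoxia. Clec10a rose by 4.61 in normal air against 4.49 in hypoxia, Cp by 3.63 against 3.76, Hp by 2.67 against 2.61 and Gpx2 by 2.93 against 2.95, and the differences of the responses were -0.12 ± 0.65, adjusted p = 0.97 for Clec10a, 0.13 ± 0.49, adjusted p = 0.95 for Cp, -0.07 ± 0.35, adjusted p = 0.97 for Hp and 0.01 ± 0.34, adjusted p = 0.99 for Gpx2. Cd14 rose by 1.90 against 2.20 (difference 0.30 ± 0.37, adjusted p = 0.81). Close estimates were also found for the falls of Tac1 (-1.87 against -1.99, difference -0.12 ± 0.35, adjusted p = 0.94) and Star (-1.80 against -2.00, difference -0.20 ± 0.44, adjusted p = 0.91). Heat shock genes were called higher in 9 of 21 in normal air and 5 in hypoxia, with Hsph1 at 1.80 against 1.07. The 21 genes summed to 13280 to 13780 in CTL and 19190 to 22040 in LPS. In hypoxia they summed to 10300 to 12400 in HPO and 12890 to 13350 in COMB, so COMB overlapped CTL. The difference for Hsph1 did not pass the test (-0.73 ± 0.22, adjusted p = 0.20).

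Of 12853 genes 23 (0.179%) had responses that differed between hypoxia and normal air, 20 with the higher signed difference in hypoxia and 3 with the lower, while 3164 of the 25692 probe sets had an unadjusted p below 0.05. This count rested on single pools. With all pools 35 probe sets were called, and without 1 pool between 2 (without HPO pool 1) and 643 (without COMB pool 1). Ccl20 had the lowest adjusted p. It was at 35.9, 29.8 and 32.4 in CTL and 233, 211 and 193 in LPS, against the 1589.9, 1470.1 and 1357 of COMB given above, so its rise was 2.66 in normal air and 5.11 in hypoxia, a difference of 2.45 ± 0.19, adjusted p = 0.00055. Il1a went from 51.01, 147 and 81.5 in CTL to 261, 277 and 248 in LPS (log2 difference 1.61, against 4.66 in hypoxia), and the responses differed by 3.05 ± 0.42, adjusted p = 0.021. Tnf was at 46.1, 68.5 and 59.8 in CTL and 96.1, 109 and 92.2 in LPS, and Csf3 at 13.3, 18.9 and 20.7 and 23.6, 19.3 and 21.1. Neither was called in normal air, and the responses differed by 2.28 ± 0.36, adjusted p = 0.040 for Tnf and 2.38 ± 0.31, adjusted p = 0.021 for Csf3. Zc3h12a was at 51.9, 65.7 and 52.2 in CTL and 115, 108 and 81.6 in LPS, and its responses differed by 1.82 ± 0.21, adjusted p = 0.013. Tlr2 was at 104, 148 and 80.6 and 170.3, 164 and 153, with a difference of 1.72 ± 0.25, adjusted p = 0.026. Ccl20 was the only gene of these 6 called in all 12 fits that left out 1 pool, and the others were called in 4 to 10 of them.

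Hs3st1, a sulfotransferase that builds the anticoagulant site of heparan sulfate, was near level in 3 of the groups, at 28.8, 31.01 and 33.03 in CTL, 40.3, 34.1 and 33.4 in LPS and 32.9, 29.6 and 31.4 in HPO, and was at 114, 130.5 and 122 in COMB. Its responses differed by 1.72 ± 0.14, adjusted p = 0.00062, also in all 12 fits without 1 pool. Foxp1, a transcription factor of the forkhead family, was at 173, 160.0 and 173 in CTL and 92.2, 121 and 83.3 in LPS but at 172, 209 and 202 in HPO and 273, 263 and 247 in COMB. It was the 1 gene called in opposite directions (log2 differences -0.79 and 0.43), and the responses differed by 1.21 ± 0.19, adjusted p = 0.039, although the call in COMB against HPO was lost in 10 of the 12 fits without 1 pool (adjusted p up to 0.16). Lap3 was at 408, 491 and 529 in CTL and 561, 472 and 629 in LPS (difference -1.75 ± 0.28, adjusted p = 0.041), Zbtb34, a zinc finger protein, at 118, 122 and 135 and 102, 111 and 104 (difference -1.10 ± 0.17, adjusted p = 0.040), and Nat1, an arylamine acetyltransferase, at 292, 249 and 301 and 298, 289 and 335 (difference -0.83 ± 0.14, adjusted p = 0.0497). In COMB Zbtb34 was at 69.2, 57.8 and 57.4 and Nat1 at 171, 165 and 162, each below all 9 other pools, as was Lap3.

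**Figure D5:**
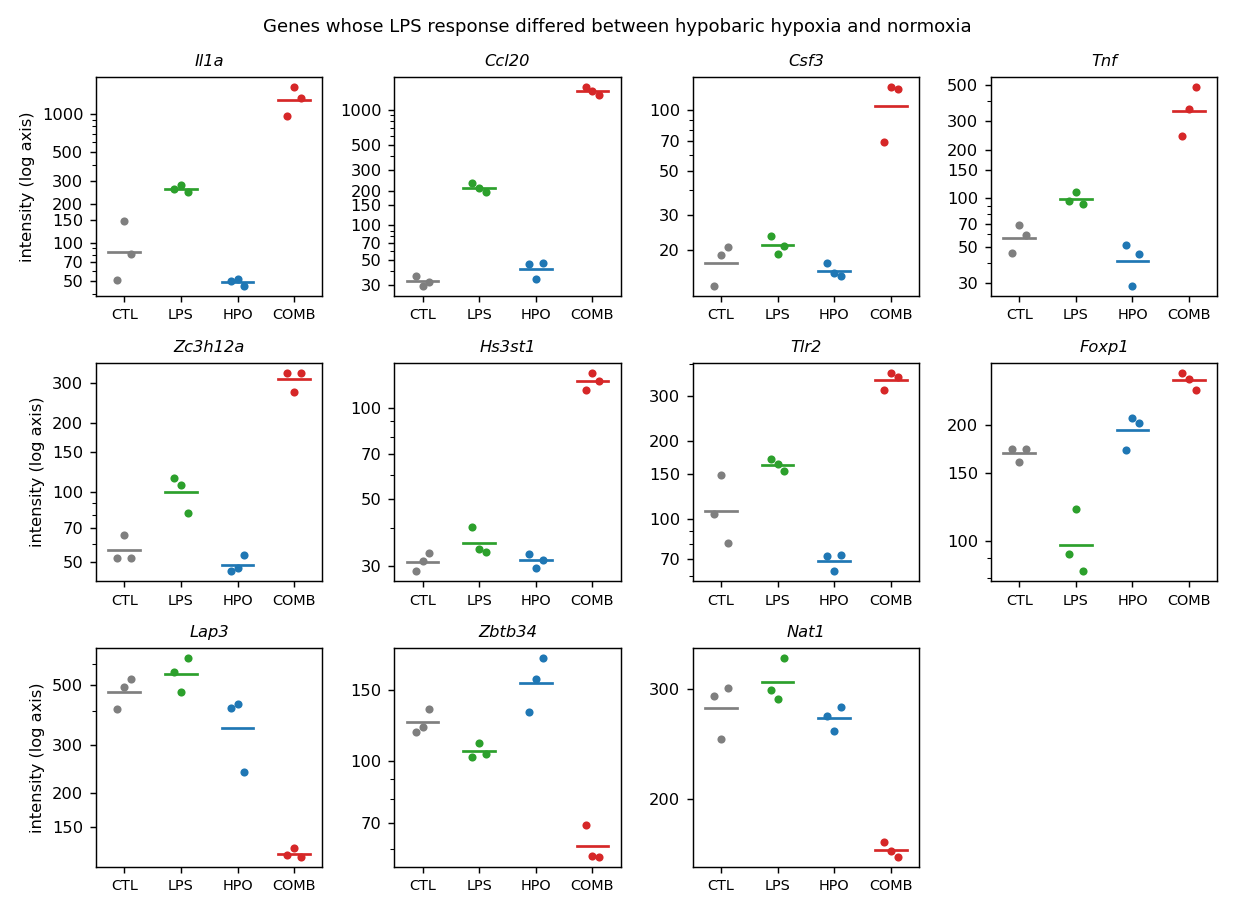
Intensity of 11 genes whose LPS response differed between hypobaric hypoxia and normal air, in the 12 pools. Points are pools on a log axis and the line is the geometric mean of a group (n = 3). The COMB points lie above all other points in the first 8 panels and below them in Lap3, Zbtb34 and Nat1.

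For several of the highest genes 1 control pool lay above every LPS pool. Cxcl2 was at 60.98, 2016 and 118 in CTL and 305, 449 and 179 in LPS, Il1b at 138, 1553 and 167 and 841, 819 and 682, and Isg15 at 96.1, 2127 and 120.2 and 997, 757 and 642, so that this was CTL pool 2. None of the 3 was called in normal air (adjusted p = 0.95, 0.46 and 0.54), and the difference of the responses did not pass the test for any of them (adjusted p = 0.18, 0.14 and 0.58). Without CTL pool 2 the log2 differences in normal air were 1.76 ± 0.52 (adjusted p = 0.13) for Cxcl2, 2.35 ± 0.25 (adjusted p = 0.0017) for Il1b and 2.86 ± 0.47 (adjusted p = 0.015) for Isg15, and the differences of the responses were 3.32 ± 0.70 (adjusted p = 0.16), 2.64 ± 0.34 (adjusted p = 0.030) and 0.54 ± 0.62 (adjusted p = 0.82). Il1b and Isg15 then passed in normal air and Il1b for the difference of the responses. With all pools Ccl2 and Cxcl1 had differences of 5.22 ± 1.08, adjusted p = 0.081 and 3.83 ± 0.79, adjusted p = 0.078, which did not pass either. Without that CTL pool 20 of the 35 interferon-stimulated genes were called higher in normal air, against 5 with it, and their median was 1.24 against 0.91. A missed threshold for these genes does not show that the responses were alike.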

How the data were processed

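RNA pools from BALF cells were hybridised to 12 one-colour Affymetrix rat arrays, 3 a group. The deposited values are 1 linear, summarised intensity per probe set and array, and the study names Affymetrix Command Console, Transcriptome Analysis Console and MAS 3.0. The normalization the authors applied and whether it was shared by the arrays are not given in the sources used here, and no depth applies to arrays, where the number of arrays limits the precision. Probe sets named 1 gene in 20832 cases, several in 436 and none in 9831, after symbols were updated by gene identifier against RefSeq (GRCr8). Old platform annotation may still misname some.

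The 57 control probe sets were left out, and probe sets were kept where 3 or more of the 12 arrays held them above that array's 20th percentile. Log2(value + 1) of the 25692 probe sets left was fitted with limma 3.58.1 in R 4.3.3 (tables read with data.table, version 1.17.8), with 4 group means over all 12 arrays, with Benjamini-Hochberg adjustment. A test over the 6 arrays alone by exact permutation cannot go below 0.10 (two-sided). A gene took the probe set with the highest mean among those that name it alone. Of the called genes named by the rule below, 45 had several tested probe sets and 18 had all of them called the same way. The script was tested on simulated data for COMB against HPO, with 200 probe sets changed among 25692, and recovered 40.4% of those changed 1.5-fold, 83.5% at 2-fold and 98.5% at 4-fold, with 6.19% of calls false. The simulated noise was normal and independent between probe sets. These rates therefore do not carry over to pools that shift many genes together.

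Genes were named by a rule. It took the 12 highest and 12 lowest called genes with a 2-fold change and no overlap, up to 4 called genes of each list, the core genes of each list, up to 6 genes a direction for the difference of the responses, and up to 4 genes called in opposite directions. Some genes that complete a small count were added after their values were seen. The comparison, the lists and the rule were chosen with earlier results of these data known. Promoters with the interferon motif were chosen after values were seen, and motifs were counted in RefSeq promoters with Python 3.11.15. Alternatives were quantile normalization, centring, other filters and pseudocounts, only the arrays compared, other variance models, array weights, weights by the number of rats, 1 probe set per gene, the methods' unpaired t-test and leaving out each pool. The methods name a paired test for the arrays, which was not run because nothing pairs the pools. All 12 deposited columns were used.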

Additional observations from a re-analysis of the deposited data

Results flagged for a closer look

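The LPS response, as a log2 difference, was tested for a difference between hypobaric hypoxia and normal air, and 11 of the named genes passed (limma, adjusted over all probe sets). By the labels CTL was injected and HPO was not, so hypoxia and the injection cannot be told apart in these differences. The response was larger in hypoxia by 3.05 for Il1a, 2.45 for Ccl20, 2.38 for Csf3, 2.28 for Tnf, 1.82 for Zc3h12a, 1.72 for Hs3st1 and 1.72 for Tlr2. The response in hypoxia minus that in normal air was -0.83 for Nat1, -1.10 for Zbtb34 and -1.75 for Lap3. For Foxp1 it was 1.21, with -0.79 in normal air and 0.43 in hypoxia, and the call in COMB against HPO was lost in 10 of the 12 fits without 1 pool (adjusted p up to 0.16). In Nat1, Zbtb34 and Lap3 the COMB pools lay below all 9 other pools, and in the other 8 they lay above all 9. Ccl20 and Hs3st1 passed under all 21 alternatives and Zc3h12a under 19, while the other 8 genes passed under 11 to 15.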

How the results depend on the processing

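No paired analysis was possible because the pools of different groups hold different rats and their numbers link no arrays. Of 184 named genes 162 were called in COMB against HPO, 129 of them under each of 21 alternatives other than the methods' t-test and 1 probe set per gene. Where a gene was called with all pools or under the alternative, 0 changed direction. Uncalled genes could do so, among them Itgax, Mrc1 and Mt1. With all 12 arrays 1756 probe sets were called higher and 2248 lower, 938 of them at least 2-fold. Only the arrays of the 2 groups gave 954 higher and 979 lower, array weights 3174 and 3600, and 1 probe set per gene 1300 lower, with fewer probe sets tested. The methods' t-test gave 1883 higher and 2910 lower unadjusted but 10 and 7 after Benjamini-Hochberg adjustment (10 at least 2-fold). Leaving out 1 pool gave 1099 (without HPO pool 2) to 1959 higher, 1450 (without COMB pool 3) to 2330 lower and 790 to 1131 at least 2-fold. For LPS against CTL, 525 probe sets were called with all arrays, 1147 with the arrays of the 2 groups, 3702 with array weights, 4425 and 1 by the t-test before and after adjustment, and 64 to 783 without 1 pool. For the difference of the responses, 35 were called with all arrays, 85 after quantile normalization, 53 after centring, 78 with a pseudocount of 16, 114 with trended and robust variances, 2116 with array weights and 2 to 643 without 1 pool, 222 of these without COMB pool 3. The share of calls that were higher was 43.9%, 40.7% after quantile normalization and 39.9% after centring. The cause of these changes was not tested.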

Other observations

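Some lists outside the main account held a few called genes each. Over all genes 9.18% were called higher and 9.36% lower. The clock, cell cycle and proteasome lists lay near the first share, with 12.5%, 11.9% and 10.7% called higher. Their called genes are therefore described singly and not as a result about the lists. In the circadian clock, Cry1 was at 115, 92.6 and 131 in HPO and 199, 202 and 197 in COMB (log2 difference 0.83 ± 0.12, adjusted p = 0.0010) and Per2 at 257, 242 and 222 in HPO and 388, 303 and 501 in COMB (log2 difference 0.69 ± 0.18, adjusted p = 0.023), both of them repressors of the clock. The call of Per2 was lost without COMB pool 3 (adjusted p = 0.083) and without HPO pool 2 (adjusted p = 0.059) and without HPO pool 3 (adjusted p = 0.065), and the other 14 genes tested were not called. In coagulation, F3, the tissue factor that starts clotting, was at 171, 145 and 244 in HPO and 750.0, 444 and 392 in COMB (log2 difference 1.47 ± 0.29, adjusted p = 0.0058), and Procr, the receptor for protein C, at 83.3, 106 and 148 in HPO and 231, 214 and 535 in COMB (log2 difference 1.44 ± 0.32, adjusted p = 0.010). That list had 4 of 16 genes higher and 1 lower (F8, -0.43), a call lost without any single pool of COMB or HPO other than COMB pool 1. Among metalloproteinases, Adam8 was at 214, 114 and 140.0 in HPO and 657, 702 and 506 in COMB (log2 difference 2.02 ± 0.37, adjusted p = 0.0036). Fcgr2b, the inhibitory Fc receptor, was at 172, 146 and 128 in HPO and 385, 1484 and 1018 in COMB (log2 difference 2.49 ± 0.44, adjusted p = 0.0030), against Axl, a receptor for apoptotic cells, at 4708, 4672 and 4722 in HPO and 3328, 2959 and 2387 in COMB (log2 difference -0.71 ± 0.11, adjusted p = 0.0015).

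In JAK-STAT signaling 9 of 33 genes were called higher and 3 lower, and 4 or 5 were called higher without COMB pool 2, COMB pool 3, HPO pool 1 or HPO pool 2. Csf1r was at 833, 621 and 809 in HPO and 507, 479.7 and 432 in COMB. Of 42 genes of the cell cycle 5 were called higher and 1 lower, with a median of 0.06, or 3 higher without HPO pool 2, and Pcna, the clamp of DNA polymerase, was at 1609, 1497 and 1751 in HPO and 2085, 2755 and 2834 in COMB (log2 difference 0.65 ± 0.13, adjusted p = 0.0063). Of 28 proteasome subunits 3 were called higher and 1 lower, with 5 higher without COMB pool 1 or HPO pool 3 and 0 lower without COMB pool 3 or HPO pool 2.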
